A study of Mus musculus with 135 samples.

Results

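H3K4me3 in germ cells of the juvenile mouse testis was set against the same mark in cardiomyocytes of the adult heart, in the inbred strains C57BL/6J (B6) and DBA/2J (D2). The comparison uses 12 of the 135 libraries of the series: every H3K4me3 library of germ cells and cardiomyocytes of these strains, with 3 libraries in each of 4 groups. The series mapped how parental alleles shape this mark in inbred, recombinant inbred (BXD) and hybrid mice. It also holds hepatocytes and embryonic stem cells, which are not used here.

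The germ cells came from males 14 days after birth, by a crude isolation, and the cardiomyocytes came from female mice of 8 weeks. All libraries are chromatin immunoprecipitation sequencing (ChIP-seq) of chromatin cut with micrococcal nuclease. Germ cell libraries were built with the NEXTflex kit and antibody lot 2557645, and cardiomyocyte libraries with the KAPA hyper kit and lot 2746331 of the same antibody. Cell type, sex, age, kit, antibody lot and the peak list on which reads were counted therefore change together between the groups, and in these libraries their effects cannot be told apart. The labels do not say that the 3 libraries of a group came from separate animals, so p-values measure only the spread between libraries, which may be technical. In such bulk chromatin, fewer cells carrying the mark and less mark per cell cannot be told apart.

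H3K4me3, trimethylation of lysine 4 of histone H3, is laid down by SET-domain methyltransferases at the start sites of active or poised genes, most strongly where CG dinucleotides are dense. In male germ cells the methyltransferase PRDM9 also places it away from promoters, at the sites where meiotic recombination starts. Cells of the juvenile testis at this age include spermatogonia and spermatocytes in early meiotic prophase, which pair their chromosomes along the synaptonemal complex and silence transposons through small piwi-interacting RNAs (piRNAs). Cardiomyocytes contract through the sarcomere, release calcium from the sarcoplasmic reticulum and burn mainly fatty acids. Genes that define a cell's identity often carry the mark over wide domains that run into the gene body.

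The promoters of the germline and heart genes that carried a peak in 1 cell type only looked different as sequence. Shown here are the 250 bases upstream of the start site (RefSeq, GRCm38.p6) for the 4 germline genes and the 4 heart genes of highest CPM over the whole peak, among genes whose first window in the promoter table lay under such a peak. Dmrt1, Trdn and Mb, which held more than the last gene of each set, were not found in the table or had that window outside the peak. Each is written 5′ to 3′ on the strand of the gene, with every CG dinucleotide in capitals.
Sycp3: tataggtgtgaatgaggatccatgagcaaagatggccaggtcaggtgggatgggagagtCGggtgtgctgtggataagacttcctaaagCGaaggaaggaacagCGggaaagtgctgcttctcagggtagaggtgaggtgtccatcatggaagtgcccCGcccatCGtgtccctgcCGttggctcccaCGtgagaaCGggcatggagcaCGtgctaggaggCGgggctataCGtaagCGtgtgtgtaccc
4930447C04Rik: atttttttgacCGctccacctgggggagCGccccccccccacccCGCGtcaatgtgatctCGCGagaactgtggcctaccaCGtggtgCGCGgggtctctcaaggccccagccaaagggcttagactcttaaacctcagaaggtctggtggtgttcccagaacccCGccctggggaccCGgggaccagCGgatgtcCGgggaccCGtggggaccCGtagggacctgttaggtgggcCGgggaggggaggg
Sycp2: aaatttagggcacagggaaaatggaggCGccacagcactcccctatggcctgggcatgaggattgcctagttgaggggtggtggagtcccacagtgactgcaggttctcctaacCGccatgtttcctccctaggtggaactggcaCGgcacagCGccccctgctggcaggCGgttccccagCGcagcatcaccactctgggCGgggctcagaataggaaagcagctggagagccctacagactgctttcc
Dmrtb1: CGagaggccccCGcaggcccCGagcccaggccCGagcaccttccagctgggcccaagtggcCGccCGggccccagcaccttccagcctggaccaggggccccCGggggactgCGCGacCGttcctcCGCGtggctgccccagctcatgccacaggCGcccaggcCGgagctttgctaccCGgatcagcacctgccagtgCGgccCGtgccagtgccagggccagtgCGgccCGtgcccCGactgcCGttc
Csrp3: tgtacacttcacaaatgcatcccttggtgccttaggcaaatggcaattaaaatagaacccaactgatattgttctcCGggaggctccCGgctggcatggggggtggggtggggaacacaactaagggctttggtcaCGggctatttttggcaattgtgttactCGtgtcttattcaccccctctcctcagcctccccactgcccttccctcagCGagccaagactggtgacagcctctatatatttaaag
Ckmt2: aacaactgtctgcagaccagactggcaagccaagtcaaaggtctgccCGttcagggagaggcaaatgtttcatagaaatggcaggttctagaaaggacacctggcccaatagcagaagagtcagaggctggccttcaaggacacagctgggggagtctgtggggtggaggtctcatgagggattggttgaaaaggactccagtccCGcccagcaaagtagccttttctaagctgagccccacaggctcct
Myl3: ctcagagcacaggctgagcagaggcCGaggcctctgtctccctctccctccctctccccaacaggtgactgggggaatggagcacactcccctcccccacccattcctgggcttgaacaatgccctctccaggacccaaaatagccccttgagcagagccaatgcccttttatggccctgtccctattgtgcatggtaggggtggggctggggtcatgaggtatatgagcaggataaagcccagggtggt
Pln: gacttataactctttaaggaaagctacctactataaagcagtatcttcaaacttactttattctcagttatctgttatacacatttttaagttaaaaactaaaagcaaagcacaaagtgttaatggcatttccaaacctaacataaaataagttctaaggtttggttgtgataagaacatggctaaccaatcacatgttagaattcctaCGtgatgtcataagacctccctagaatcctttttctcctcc

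The germline promoters belong to Sycp3 (chr10:88459337-88459586, plus strand) and Sycp2 (chr2:178407659-178407908, minus strand), parts of the lateral element of the synaptonemal complex, to 4930447C04Rik (chr12:72917766-72918015, minus strand), which encodes its central element protein SIX6OS1, and to Dmrtb1 (chr4:107683590-107683839, minus strand), a transcription factor of spermatogonia. They hold 12, 7, 16 and 21 CG dinucleotides, in that order. The heart promoters belong to Csrp3 (chr7:48848052-48848301, minus strand), the muscle LIM protein of the Z-disc, to Ckmt2 (chr13:91876886-91877135, minus strand), the mitochondrial creatine kinase of muscle, to Myl3 (chr9:110763428-110763677, plus strand), a ventricular myosin light chain, and to Pln (chr10:53337436-53337685, plus strand), phospholamban, the brake on the calcium pump. They hold 5, 2, 1 and 1.

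The same contrast held over the lists. In windows of 300 bases, from 250 before to 50 after the start, the germline genes with a peak in the germ cell file only held a median of 17 CG dinucleotides (39 of 47 genes found in the table). The heart genes with a promoter peak listed in the heart file alone held a median of 3.5 (14 of 17 found). Of these 17, 11 had no germ cell peak over it and 6 had a germ cell peak that overlapped it. Germline genes with a matched peak held a median of 20, and heart genes with promoter peaks in both files a median of 11. The median over all 27025 promoters was 7, that of ribosomal protein genes 21 and that of respiratory chain genes 19. The motif CACGTG, which reads the same on both strands, lay in 15 of the 39 germline windows (38.5%) and in 7.24% of all windows. It lay in 2 of 17 windows of matched germline genes (11.8%), 8.77% of ribosomal and 7.46% of respiratory chain windows. GCGGGAA on either strand lay in 8 of the 39 (20.5%) and in 4.66% of all windows. Matched germline genes held it in 3 of 17 windows, ribosomal protein genes in 10.5% and respiratory chain genes in 10.45%. CTANNNNTAG, which is also its own complement, lay in 4 of the 14 heart windows (28.6%), in 0 of the 39 germline windows and in 3.70% of all. Heart genes with promoter peaks in both files held CTANNNNTAG in 5 of 59 windows (8.5%), and matched germline genes in 1 of 17. CNGTTG on either strand lay in 9 of the 39 germline windows (23.1%), in 9 of the 14 heart windows (64.3%) and in 35.1% of all. It lay in 8 of 17 windows of matched germline genes (47.1%) and in 27.1% of windows of heart genes in both files. Ribosomal protein genes held it in 22.8% and respiratory chain genes in 29.85%. These are matches of letters in a fixed window.

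The germ cell file lists 67114 peaks and the cardiomyocyte file 23809. Of these, 10806 were matched, each covering at least 50% of the other. They are 16.1% of the germ cell peaks and 45.4% of the cardiomyocyte peaks. A further 6682 germ cell peaks overlapped a cardiomyocyte peak by less, and 49626 (73.9%) overlapped none, of which 44638 lay farther than 1 kb from any annotated start site (distal) and 4988 at promoters. In the cardiomyocyte file 8116 peaks (34.1%) overlapped no germ cell peak, 7131 of them distal and 985 at promoters. Heart peaks were wider, with a median of 3263 bases against 1659, and 9164 bases for the heart promoter peaks that overlapped a germ cell peak by less than 50%. Reads in peaks ran from 6932375 to 30334823 in germ cell libraries and from 2618483 to 8338075 in cardiomyocyte libraries. Matched peaks took 41.2 to 50.2% of them in germ cells and 41.9 to 48.4% in the heart. All levels are in CPM, read counts scaled to a common library size as in the test, with that size set over the matched peaks, and can be compared between genes only per kb of peak.

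The lack of a listed peak is not the absence of the mark. The heart file lists no peak at the promoters of Gtf2a1, a general transcription factor, or of Fbrs and Kdm6b, which held 236 ± 15.4, 302 ± 33.5 and 300 ± 16.4 CPM (SD, n = 6) in germ cells. The germ cell file lists none at Ctdsp2, Zfp36l1 or Ccnd2, at 639 ± 63.5, 429 ± 51.0 and 440 ± 39.1 CPM (SD, n = 6) in the heart. Among 76 ribosomal protein genes 4 (5.26%) had a promoter peak in the germ cell file only and 4 in the heart file only. Among 85 genes of the respiratory chain it was 4 (4.71%) and 4. Over 21924 protein-coding genes, 13.6% had a promoter peak in the germ cell file with nothing overlapping it in the heart, 2.71% the reverse, and 27.7% had none in either.

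The labels were checked against defining markers. All 8 germ cell markers had a promoter peak in the germ cell file, and Sycp1, Sycp3, Dmc1, Spo11, Ddx4, Stra8 and Piwil2 had none in the heart file. Dazl, an RNA-binding protein of germ cells, had one in both. Of the 8 cardiomyocyte markers, Myl2, Tnni3, Ryr2 and Ttn had a promoter peak in the heart file and the last 3 also in germ cells. Myh6, Tnnt2, Actc1 and Nppa, among the most transcribed genes of the heart, are listed at no promoter peak in either file, so the heart label rests on the other genes. Summed over listed promoter peaks, the germ cell markers held 682 to 977 CPM over 8 genes in germ cell libraries. In heart libraries they held 25.7 to 39.9 CPM over 1 gene, Dazl. The heart markers held 119 to 130 CPM over 3 genes in germ cells and 642 to 1105 CPM over 4 genes in the heart. A gene without a listed peak adds nothing to these sums, so they depend on which peaks each file lists.

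Germline genes were marked mainly in the germ cell file. Of 83 genes on 4 lists, 47 (56.6%) had a promoter peak with no heart peak over it, and 0 had the reverse. Over all protein-coding genes these shares were 13.6% and 2.71%. These 47 were 12 of 16 genes of the synaptonemal complex and meiotic cohesin, 11 of 25 of meiotic break formation and repair, 15 of 21 of the piRNA pathway and 9 of 21 of spermatogonia and meiotic entry. Their levels ran from 14.7 CPM at Piwil4 to 177 CPM at Sycp3, with a median of 66.6. Of the other genes, 23 had a matched peak, 6 had peaks in both files that were not matched, and Zbtb16, a regulator of spermatogonial stem cells, had a promoter peak in the heart file alone, overlapped by a germ cell peak away from its start. Smc1b, Mei1, Ccdc36, Tex15, Nanos2 and Nanos3 had none in either.

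**Figure D1:**
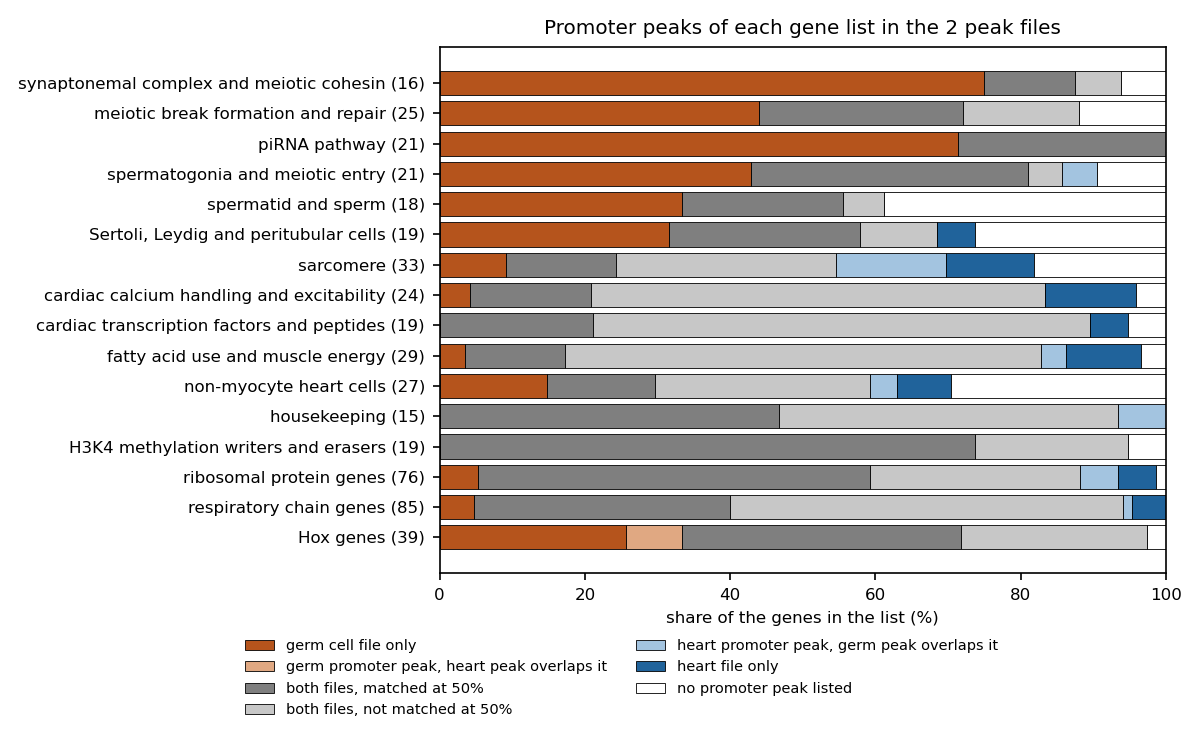
Share of the genes of each list (x axis, %, list size in brackets) by where their promoter peaks are listed. Orange marks genes with a promoter peak in the germ cell file only, which are 75% of the synaptonemal complex genes and 71.4% of the piRNA genes, and dark blue genes with one in the heart file only. Light greys mark peaks in both files that were not matched, which hold most genes of the heart lists.

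Sycp3 held 196, 138 and 151 CPM in the B6 germ cell libraries and 193, 189 and 194 in the D2 libraries, the highest level over a whole peak on these lists. Sycp1, which forms the transverse filaments of the synaptonemal complex, held 120, 84.2 and 91.1 CPM in B6 and 122, 115 and 123 in D2. The first B6 library was the highest of its group at both genes. It also had the lowest share of its reads in matched peaks (41.2%), on which the scale rests, and the part of this was not tested. Hormad1, a chromosome axis protein, held 83.1 ± 21.6 CPM and Rec8, the meiotic cohesin, 49.1 ± 8.00 (SD, n = 6).

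Among the break and repair genes, Dmc1, the meiotic recombinase, held 113, 101 and 92.1 CPM in B6 and 119, 115 and 113 in D2. Spo11, which makes the breaks, held 43.2, 38.6 and 32.8 CPM in B6 and 52.4, 46.7 and 54.4 in D2. The D2 libraries were the higher ones at Spo11. No cardiomyocyte peak covered either promoter. Of the piRNA genes, Piwil2 held 86.8 ± 18.4, the helicase gene Ddx4 73.3 ± 18.5 and Piwil1, the PIWI protein of later spermatocytes, 29.3 ± 6.94 CPM (SD, n = 6). Stra8, which starts meiosis in response to retinoic acid, held 61.9 ± 10.5, and Meioc, another gene of the meiotic program, 123 ± 21.1 CPM.

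Of 18 genes of the spermatid, a later stage, 6 (33.3%) had a promoter peak in the germ cell file only, at 5.39 to 36.2 CPM. Another 7 had none in either file. The share with a peak in the germ cell file only was 13.6% over all protein-coding genes. Markers of other testis cells also had peaks in the germ cell file only, at 6 of 19 genes (31.6%) of Sertoli, Leydig and peritubular cells. Among them were Cldn11 at 96.2 ± 28.4, Amh at 82.7 ± 6.84 and Fshr at 46.5 ± 11.1 CPM (SD, n = 6), which mark Sertoli cells. The others were Rhox5, also of Sertoli cells, and the Leydig cell genes Hsd3b1 and Lhcgr, at 4.58, 9.89 and 4.66 CPM. The Leydig cell genes Star, Cyp11a1, Cyp17a1 and Insl3 had none in either file. Summed over the 13 of 19 genes with a peak, this list held 978 to 1346 CPM in germ cell libraries, and over 8 of 19 genes 1536 to 1849 CPM in heart libraries, of which Gata4 alone held 915. The part of such cells in the germ cell peaks was not tested.

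At matched peaks the cell types were compared with edgeR's quasi-likelihood test, with strain as a covariate. Of 10806 peaks, 7727 (71.5%) differed at an adjusted p under 0.05, 3713 (34.4%) higher in germ cells and 4014 (37.1%) higher in cardiomyocytes. A test for changes above 2-fold called 907 (8.39%), 116 (1.07%) higher in germ cells and 791 (7.32%) higher in cardiomyocytes. At 8446 promoter peaks it called 88 (1.04%) and 444 (5.26%). The median log2 difference (germ cells minus cardiomyocytes) at matched promoters was 0.03, on a scale set over the matched peaks themselves. All fold calls below are at an adjusted p under 0.05 in the test for more than 2-fold.

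**Figure D2:**
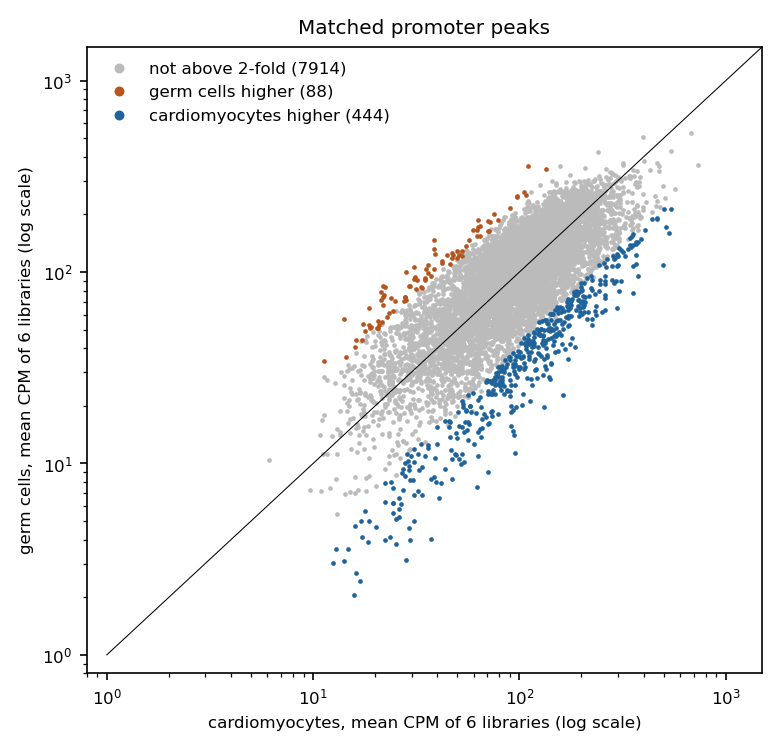
Mean CPM of 6 libraries at each of 8446 matched promoter peaks, cardiomyocytes (x axis) against germ cells (y axis), both on log scales, with the line of equality. Orange points (88) are above 2-fold higher in germ cells, blue points (444) above 2-fold higher in cardiomyocytes and grey points (7914) neither.

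Germline genes with a matched promoter peak were called more than 2-fold higher in germ cells in 4 of 23 cases and in the heart in 0, where 1.04% and 5.26% of all matched promoters were called. At any size, 17 were higher in germ cells and 4 in cardiomyocytes (37.2% and 34.7% of all matched promoters), and their median log2 difference was 0.59 against 0.03 for all matched promoters. Mei4, which helps SPO11 to make breaks, held 94.9, 73.9 and 79.9 CPM in B6 germ cells and 89.3, 85.0 and 81.9 in D2, against 16.3, 21.2 and 11.4 in B6 cardiomyocytes and 26.5, 30.7 and 24.9 in D2. Every germ cell library was above every heart library, and the log2 difference was 2.00 (SE 0.16, adjusted p = 1.9e-05). The peak lay at chr9:81862484-81865026 (mm10) in the germ cell file, over an exon with untranslated sequence.

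Stag3, a meiotic cohesin subunit, shares its promoter peak (chr5:138278626-138281983) with Gpc2, so that the genes cannot be told apart. It held 132, 90.9 and 95.6 CPM in B6 and 115, 95.8 and 111 in D2 germ cells, against 29.6, 34.0, 23.6, 24.4, 33.4 and 39.3 in the heart libraries, with no overlap. The log2 difference was 1.81 (SE 0.13, adjusted p = 2.2e-05). Tdrd5, a Tudor protein of the piRNA pathway, held 73.8 ± 9.76 CPM in germ cells and 21.7 ± 12.9 in the heart (SD, n = 6; log2 1.92, SE 0.24, adjusted p = 0.0025). Its B6 heart libraries held 8.28, 20.2 and 5.68 CPM and the D2 heart libraries 27.1, 38.8 and 30.5, so the strains did not overlap within the heart. The name of this heart peak marks it as found on the second genome only, and not on the reference. The part of the mapping genome in this strain difference was not tested.

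Prdm9 held 193, 193 and 228 CPM in B6 and 239, 217 and 225 in D2 germ cells. The heart libraries held 106, 85.7 and 105 in B6 and 82.8, 73.9 and 85.0 in D2, again below every germ cell library (log2 1.25, SE 0.09, adjusted p = 0.019). It was the only 1 of 14 matched genes among 19 writers and erasers of H3K4 methylation that was called in either direction. Meiob, a single-strand DNA binding protein of meiosis, held 116 ± 16.8 against 49.8 ± 12.6 CPM (log2 1.25, adjusted p = 0.076) and was not called. Kit, the receptor of differentiating spermatogonia, and Mybl1, a regulator of piRNA genes, were not called above 2-fold, at log2 -0.28 and 0.30.

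**Figure D3:**
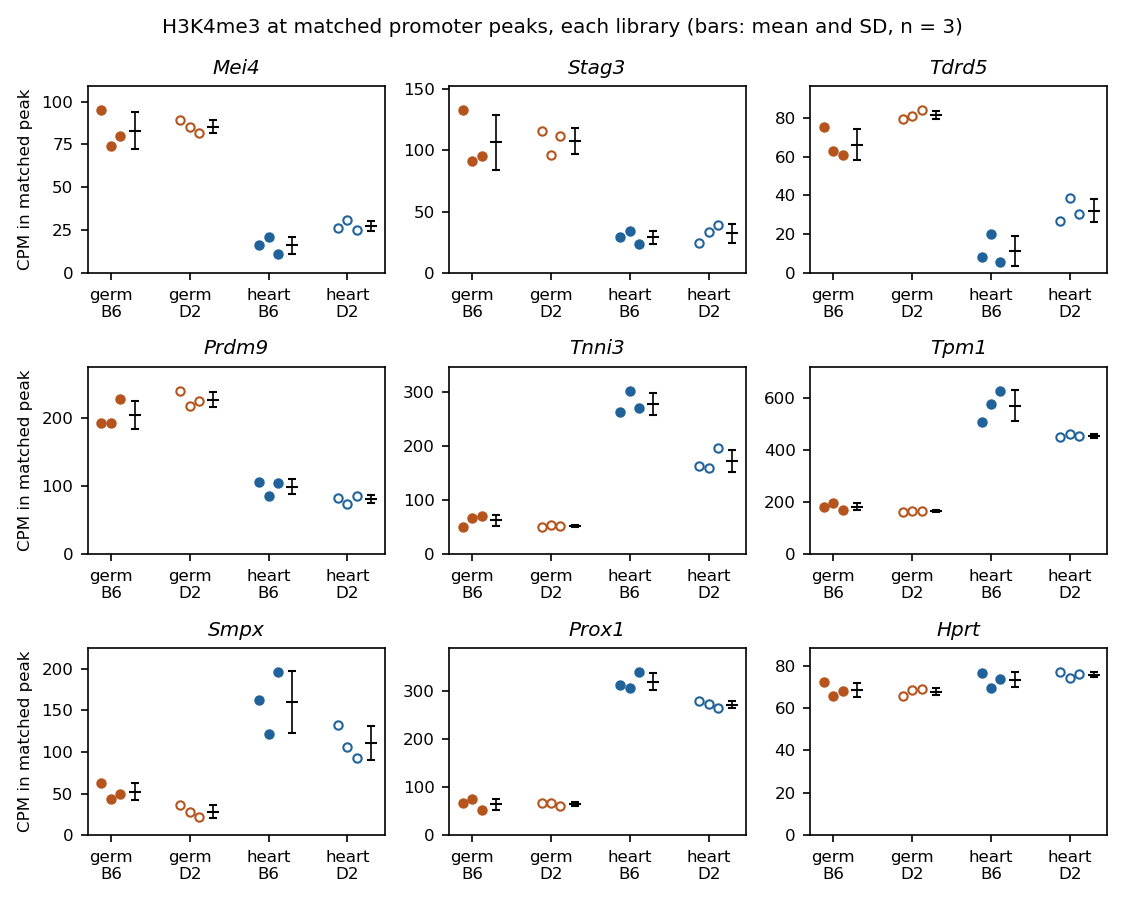
CPM in the matched promoter peak of 9 genes (y axes start at 0) in each library of the 4 groups, with the mean and SD of 3 libraries as bars. Mei4, Stag3, Tdrd5 and Prdm9 are higher in every germ cell library (orange), Tnni3, Tpm1, Smpx and Prox1 in every cardiomyocyte library (blue), and Hprt, a housekeeping gene, holds 65.6 to 76.8 CPM in all 12.

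When the reads of all promoter peaks of a gene were summed in each file, 29 germline genes could be compared and 7 were higher in germ cells (background 2.07% of 14166 genes) and 2 in the heart (background 19.9%). Dazl held 234, 145 and 149 CPM in B6 and 206, 174 and 201 in D2 germ cells, over 5511 bases, against 25.7 to 39.9 over 2088 bases in the 6 heart libraries (log2 2.48, SE 0.13, adjusted p = 3.1e-09). The genes higher in the heart were Msh4 and Msh5, which encode a meiotic MutS pair. A peak counts for every gene with a start site within 1 kb, so such sums can include the mark of a neighbouring gene. The part of neighbouring genes at Msh4 and Msh5 was not tested. Msh5 held 60.6 ± 9.19 CPM over 2949 bases in germ cells and 303 ± 10.5 over 10144 bases in the heart (SD, n = 6; log2 -2.32, SE 0.09, adjusted p = 5.0e-11). With peak width as an offset, 0 germline genes were called in either direction.

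Heart genes mostly had promoter peaks in both files, and the heart peaks were far wider. Of 105 genes on 4 lists (33 of the sarcomere, 24 of calcium handling and excitability, 19 cardiac transcription factors and peptides, 29 of fatty acid use and muscle energy), 17 had a matched peak, 57 had peaks in both files that were not matched, 11 had one in the heart file only and 6 had a heart promoter peak overlapped by a germ cell peak elsewhere. A promoter peak in the germ cell file only was found at 5 (Myl7, Xirp2, Fhl2, Kcnj11 and Cpt2), and 9 had none. Over the 74 genes with promoter peaks in both files the median summed width was 3382.5 bases in germ cells and 12154.5 bases in the heart, and 73 of 74 were wider in the heart. Over all 14166 such genes the medians were 3381.5 and 4532 bases and 70.7% were wider in the heart.

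The 11 heart-only genes ran from 60.03 to 396 CPM with a median of 194. Csrp3 held 464, 435 and 595 CPM in B6 and 334, 284 and 262 in D2 cardiomyocytes. Ckmt2 held 424, 347 and 433 in B6 and 255, 222 and 209 in D2. The D2 libraries were the lower ones at both genes, and at Myl2, the ventricular regulatory light chain, with 138, 204 and 189 CPM in B6 and 79.5, 118 and 92.2 in D2. Trdn, which anchors calsequestrin in the calcium store, held 264 ± 112, myoglobin (Mb) 238 ± 70.7, Pln 194 ± 85.4 and the natriuretic peptide gene Nppb 60.03 ± 10.2 CPM (SD, n = 6). Kcnip2, a potassium channel subunit, held 169 ± 12.1, and its strains overlapped. The D2 heart libraries are also the shallower ones, with 2618483 to 4104501 reads in peaks against 6839220 to 8338075 in B6, and the part of depth in these gaps was not tested.

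Reads summed over promoter peaks were counted over the widths each file lists, so their ratio moves with those widths. By such sums 54 of the 74 heart genes in both files were called more than 2-fold higher in cardiomyocytes and 0 in germ cells, at a background of 19.9% and 2.07%, and with peak width as an offset 13 and 0. The 54 were 13 of 15 sarcomere genes, 15 of 19 of calcium handling, 13 of 17 transcription factors and 13 of 23 metabolic genes. The median log2 difference was -2.14 over the 74 genes and -0.17 over all. Ryr2, the calcium release channel, held 32.0, 40.3 and 27.8 CPM in B6 and 35.1, 40.3 and 43.1 in D2 germ cells over 3373 bases. In the heart it held 422, 520 and 480 CPM in B6 and 422, 380 and 305 in D2 over 25650 bases (log2 -3.51, SE 0.13, adjusted p = 2.9e-12). Every heart library was above every germ cell library.

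Jph2, which holds the calcium release units together, held 19.1 ± 4.60 CPM over 2207 bases and 714 ± 84.7 CPM over 34008 bases (log2 -5.20). Hand2, a transcription factor of heart development, held 37.0 ± 6.62 CPM over 4632 bases and 848 ± 154 over 28220 (log2 -4.50), and Tbx5, a T-box factor, 15.1 ± 2.48 over 2847 and 327 ± 88.6 over 12380 (log2 -4.34). Myom1, which crosslinks thick filaments at the M-band, held 3.77 ± 1.44 CPM over 1347 bases and 258 ± 100 over 15692 (log2 -5.97), and Ckm, the cytosolic creatine kinase of muscle, 5.66 ± 2.90 over 1586 and 179 ± 26.9 over 8719 (log2 -4.82). Each of these was called (SD, n = 6; the largest adjusted p was 4.3e-11, at Ckm), and all but Jph2 also with the width offset. Ttn, the giant spring of the sarcomere, held 30.8 ± 6.22 and 79.6 ± 38.8 CPM and was not called (log2 -1.30, adjusted p = 0.15).

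**Figure D4:**
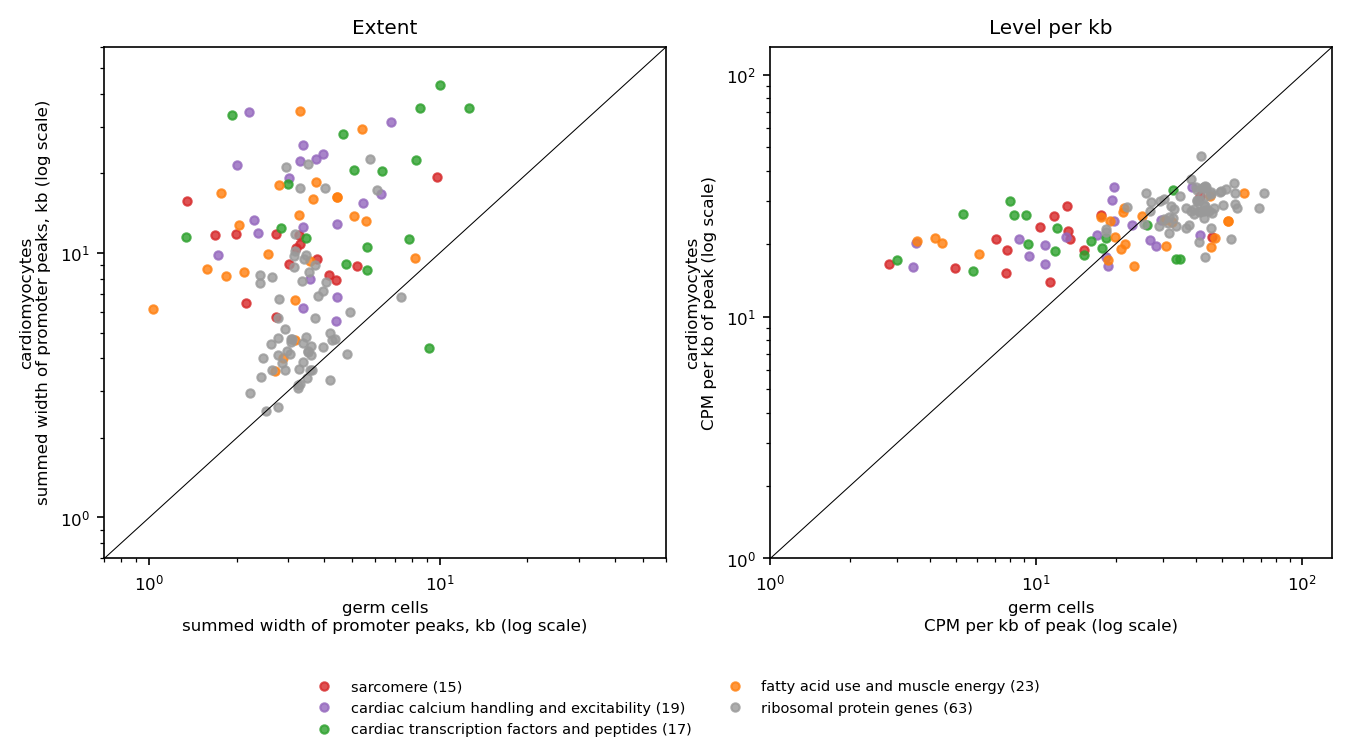
Summed width of a gene's promoter peaks in kb (left) and CPM per kb of peak (right), germ cells on the x axes and cardiomyocytes on the y axes, log scales, with the line of equality. The 74 gene entries of the heart lists are in colour and 63 ribosomal protein genes in grey. All but 1 heart gene lie above the line for width, while in level per kb they spread to both sides of it.

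Most of the difference at heart genes went with the listed widths of the peaks. These widths come from the separate peak list of each cell type, and the part of peak calling in them was not tested. Per kb of peak, the median of the 74 heart genes was 17.7 CPM in germ cells and 21.2 CPM in the heart, and with the offset the 13 called were all higher in the heart (over the 74, median log2 -0.35, against 0.17 over all genes). Over all genes with the offset, 2.55% were called higher in the heart and 1.17% higher in germ cells. The 13 heart genes were Myom1, Ankrd1, Casq2, Slc8a1, Tbx5, Tbx20, Hand2, Smyd1, Irx4, Prox1, Ckm, Pgam2 and Cox6a2. Casq2, calsequestrin, kept the largest such difference (log2 -2.58 with the offset and -5.33 without), while that of Ryr2 fell to -0.58 and was not called. Wider heart peaks were not limited to heart genes. They were found at 14 of 14 housekeeping genes, 54 of 63 ribosomal and 74 of 76 respiratory chain genes. From summed peaks 3 of 14, 10 of 63 and 21 of 76 were called higher in the heart, where 19.9% of all genes were. In germ cells 0, 1 and 0 were called higher (2.07% of all genes). With the offset 0, 0 and 1 were called higher in the heart and 0, 2 and 2 in germ cells.

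At the 17 matched heart promoters, 4 were called, all higher in cardiomyocytes, where 5.26% of all matched promoters were called that way and 1.04% the other. With the width offset 1 of them, Prox1, was called. Tnni3, cardiac troponin I, held 49.99, 65.8 and 70.5 CPM in B6 and 50.6, 53.2 and 52.0 in D2 germ cells, against 263, 301 and 270 in B6 and 163, 159 and 196 in D2 cardiomyocytes (log2 -1.94, SE 0.09, adjusted p = 1.4e-07). Prox1, a homeobox factor, held 64.6 ± 7.64 and 297 ± 28.8 CPM (log2 -2.18, SE 0.08, adjusted p = 3.8e-09), tropomyosin Tpm1 173 ± 12.6 and 512 ± 73.4 (log2 -1.56, adjusted p = 1.0e-06) and Smpx, a small muscle protein, 40.1 ± 15.3 and 135 ± 38.2 (SD, n = 6; log2 -1.79, adjusted p = 8.7e-05). No library of 1 cell type reached those of the other at these 4 genes, which was so for 23.3% of all matched promoters in favour of the heart and 23.2% in favour of germ cells. The germ cell levels at Tnni3 and Prox1 are of peaks listed in the germ cell file, so the mark was measured there in both cell types. The median log2 difference of the 17 was -0.60, against 0.03 over all matched promoters.

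Some markers of other heart cells were higher in the heart from summed peaks. Of 27 genes of fibroblasts, endothelium, mural and blood cells, 6 of the 12 that could be compared from summed peaks were called higher in the heart (background 19.9%), the endothelial genes Egfl7 (log2 -4.06), Cdh5 (-3.01), Tek (-2.35) and Kdr (-1.95) and the pericyte genes Pdgfrb (-3.54) and Cspg4 (-3.52). With the width offset 2 of the 12, Egfl7 and Cspg4, were called. Peaks in the germ cell file only were found at 4 of the 27 genes (14.8%), near the 13.6% of all protein-coding genes. They were Col1a2 of fibroblasts, Emcn of endothelium, Rgs5 of pericytes and Cd3e of T cells, at 85.6, 7.39, 9.52 and 36.1 CPM. Pdgfra, of fibroblasts, and Tie1, of endothelium, had a peak in the heart file only (7.41%, against 2.71% of all protein-coding genes). Pdgfra held 297 ± 36.8 CPM (SD, n = 6). Pecam1, Vwf, Ptprc, Csf1r, Adgre1 and Lyz2, which define endothelium and blood cells, and Postn and Lum, of fibroblasts, had none in either file. Summed, 15 of the 27 genes held 2830 to 3131 CPM in heart libraries and 16 held 656 to 758 CPM in germ cell libraries. The part of such cells in the heart peaks was not tested.

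Among all matched promoters whose libraries did not overlap, Mei4 showed the largest difference in favour of germ cells. After it came Arl14epl (log2 1.96), Tdrd5, Chrna5, a nicotinic receptor subunit (1.91), the cell cycle genes Ccnb2, a cyclin (1.91), and Cdc25c, the phosphatase that triggers mitotic entry (1.91), Syn2, a synapsin (1.87), the imprinted gene Zdbf2 (1.84), the peak of Stag3 and Gpc2, and Smim17 (1.799). Cdc25c held 168, 112 and 129 CPM in B6 and 166, 130 and 173 in D2 germ cells, and 34.5 to 44.4 CPM in the 6 heart libraries (SE 0.11, adjusted p = 1.4e-06). Ccnb2 held 61.4 to 98.6 CPM in germ cells and 17.4 to 31.3 in the heart. At these 10 peaks the germ cell peak was always the wider one, and with the width offset 0 of 10 were called. By its name, the heart peak at each of them was found on a single genome. Over all 88 promoters called higher in germ cells, 67 heart peaks (76.1%) were found on the reference genome only, against 28.0% of promoters not called. Among matched peaks found on both genomes, 18 were called higher in germ cells and 279 in the heart. The part of the mapping genome in these calls was not tested.

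The largest differences in favour of cardiomyocytes were larger. Pla2g5, a secreted phospholipase, held 7.52 ± 5.07 CPM in germ cells and 62.6 ± 12.9 in the heart (log2 -3.25, SE 0.21, adjusted p = 1.3e-07). Its germ cell libraries split by strain, with 14.6, 11.8 and 9.2 CPM in B6 and 3.26, 3.61 and 2.65 in D2. Maob, monoamine oxidase B on the X chromosome, held 2.65 to 5.48 CPM in the germ cell libraries and 28.9 to 44.2 in the heart libraries (log2 -3.14, SE 0.16, adjusted p = 1.1e-08). Sardh, sarcosine dehydrogenase of the mitochondrion, followed at log2 -3.11, then the shared promoter of Tmem176a and Tmem176b (-3.08), Btbd3 (-2.81), Pisd, which makes phosphatidylethanolamine in mitochondria (-2.74), Mrtfb, a coactivator of serum response factor (-2.73), Pakap (-2.70), the kinase gene Ikbke (-2.70) and Map1a, a microtubule-associated protein (-2.63). All 10 were also called with the width offset. Mean germ cell levels were low at Sardh (3.1 CPM), Pakap (3.80) and Ikbke (2.69). By its name, the heart peak was found on the reference genome only at all of them but Btbd3 and Map1a. So was the germ cell peak at Pla2g5, Maob, Sardh and Ikbke. Over all 444 promoters called higher in the heart, 162 heart peaks (36.5%) were of this kind, against 28.0% of promoters not called. The part of the mapping genome was not tested here either. Ikbke was not called against BXD germ cells of lot 2746331 (log2 -1.16, adjusted p = 0.52) or 2557645 (log2 -1.33, adjusted p = 0.10).

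The genes with the most reads over a peak that lacked any overlap in the other file were of mixed kinds. This order is by CPM over the whole peak: per kb Ccnd2 (49.2 CPM) and Zfp36l1 (39.3) exceeded Ctdsp2 (37.5), and Csrp3 held 15.7. In germ cells, of 2703 such genes, Hjurp, a chaperone of centromeric histone, came first at 386 ± 94.6 CPM, followed by Fbrs, Kdm6b, Slx4ip at 296 ± 40.3, Rasl10a, Asxl2, Gtf2a1, Ppip5k2, Ascc1 and Trib1 at 214 ± 20.4 (SD, n = 6). In the heart, of 568, Ctdsp2 came first, followed by Zbtb7b at 574 ± 50.2, Myl6b, Git1, Aqp1, a water channel, Bcl6 at 485 ± 159, Ccnd2, Zfp36l1, Zfp608 and Csrp3. Of these 20 genes only Csrp3 is on a germline or heart list, and several, such as Gtf2a1, are used by all cells. Some peaks lay at promoters of other genes too. In germ cells Slx4ip shared its peak with Mkks, Rasl10a with Gas2l1, Ppip5k2 with Gin1 and Ascc1 with Anapc16. In the heart Myl6b shared its peak with Myl6 and Git1 with Ankrd13b. Genes that share a peak cannot be told apart.

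How the calls split by direction depended on the libraries and the scale. Germ cells had 12.8% of the calls above 2-fold among the 12 libraries. With library sizes taken over all peaks of each file, which shifted the median log2 difference from -0.01 to 0.11, it was 24.8% (194 and 588). With the width offset 31 and 242 were called, and only 3 of the 116 germ cell calls were among the 31. The series also holds germ cells of BXD strains made with the heart's own antibody lot. When 33 such strains (36 libraries, summed by strain) were set against 12 cardiomyocyte libraries of that lot (B6, D2, BXD75 and BXD87), the split turned, with 678 called higher in germ cells (6.27%) and 244 in the heart (2.26%), so that germ cells had 73.5% of the calls. With 29 BXD strains of lot 2557645 it was 469 (4.34%) and 468 (4.33%).

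**Figure D5:**
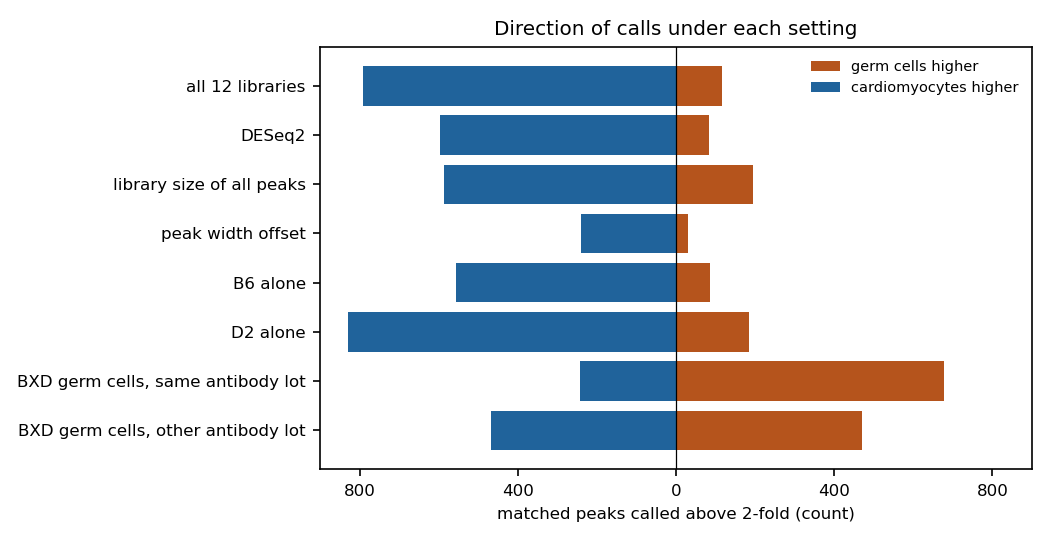
Number of matched peaks called above 2-fold (x axis, counts to both sides of 0) higher in cardiomyocytes (blue, left) and in germ cells (orange, right) for the 12 founder libraries and under the other settings named on the y axis. The 12 founder libraries gave 791 and 116, and BXD germ cells of the antibody lot used for the heart gave 244 and 678.

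Single calls kept their direction. Against BXD germ cells of the heart's lot, 85 of the 116 germ cell calls and 226 of the 791 heart calls were called again, and 0 changed sign. Mei4 (log2 2.03), Stag3 (1.85), Tdrd5 (2.55), Tnni3 (-1.45), Tpm1 (-1.20), Smpx (-1.39) and Prox1 (-1.50) were called, while Prdm9 fell to 0.54 and was not. Over the lists, 5 of 23 matched germline genes were then higher in germ cells and 4 of 17 matched heart genes in the heart. In this comparison 4.70% of all matched promoters were called higher in germ cells and 1.48% in the heart. These BXD comparisons share the B6 and D2 heart libraries with the main one.

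Matched distal peaks leaned to the heart, but not in every setting. Of 2360, 28 (1.19%) were called higher in germ cells and 347 (14.7%) in cardiomyocytes, with a median log2 difference of -0.25. With the width offset the counts were 1 and 127 and the median -0.34. In the comparison with BXD germ cells of lot 2746331 they were 281 and 119, with a median of 0.27, and with lot 2557645 190 and 227, with a median of 0.11. Those comparisons differ in the germ cell libraries and also in the number of heart libraries. Distal peaks of the heart file carry names that mark them as found on the reference genome only in 96.3% of cases, against 29.9% in germ cells. Where distal peaks were listed in 1 file only they were poor in CG, with a median ratio of observed to expected CG dinucleotides of 0.29 in germ cells and 0.20 in the heart.

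The largest distal differences in favour of germ cells were a peak 60177 bases from the start of Gtdc1 (77.1 ± 11.4 and 21.5 ± 4.47 CPM, log2 1.83), one 9932 bases from H2-M10.1 (1.82), one 4281 bases from Mog (1.79), one 16787 bases from Tfap4 (1.76) and one 5649 bases from Faim (1.67). Each was intergenic or within a gene body and was also called against both sets of BXD germ cells, while none of the 5 was called with the width offset, under which 0 of the 28 distal germ cell calls were called again. In favour of the heart they were an intronic peak 70301 bases from Tex35 (2.49 ± 2.01 and 18.9 ± 5.91 CPM, log2 -3.25), one 30974 bases from Schip1 (-3.19), one 5350 bases from Sdsl (-3.14), one 22857 bases from Rbm20, a splicing factor of titin (-3.08), and 1 near an unnamed gene model (SD, n = 6). Germ cell levels at the Tex35 and Schip1 peaks differed between strains: at Schip1 they were 12.6, 4.41 and 5.96 CPM in B6 and 0.21, 0.36 and 0.72 CPM in D2. The Schip1 peak was not called against either set of BXD germ cells, nor with the width offset.

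The X chromosome is present once in male germ cells and paired in female hearts, and how it compared with the autosomes at promoters depended on the setting. The median log2 difference at 315 matched X promoters was -0.04, within the range of -0.07 to 0.13 over the 19 autosomes, and 33.7% of them were higher in the heart against 34.7% on autosomes, and 30.2% higher in germ cells against 37.5%. With the width offset the median on X was -0.18, below the 0.052 to 0.25 of every autosome. Against BXD germ cells of the heart's lot it was 0.10, above the -0.11 to -0.0067 of every autosome. Peaks on X held 1.83 to 2.31% of reads in germ cells and 1.28 to 1.42% in the heart. Xist, the RNA that coats the inactive X of females, had a matched peak in both. It held 77.9, 41.2 and 42.7 CPM in B6 and 68.1, 52.7 and 68.2 in D2 germ cells, and 193, 134 and 192 in B6 and 143, 122 and 108 in D2 hearts. The libraries did not overlap, and the log2 difference of -1.37 (SE 0.17) passed the test for any difference (adjusted p = 1.0e-06) and not that for more than 2-fold (adjusted p = 0.056). It did pass that test against BXD germ cells of the heart's lot (log2 -1.57).

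Hox genes, which pattern the body axis, had promoter peaks in the germ cell file only at 10 of 39 (13.6% over all protein-coding genes), and in both files at 25. Of 15 with a matched peak 1 was called, at a background of 5.26% higher in the heart and 1.04% in germ cells. It was Hoxa13, at 24.0 ± 5.45 CPM in germ cells and 90.4 ± 23.8 in the heart (SD, n = 6; log2 -1.88, adjusted p = 7.0e-06), and its difference was called against BXD germ cells of lot 2557645 (log2 -1.30, adjusted p = 0.0084) and not against those of the heart's lot (log2 -1.08, adjusted p = 0.68).

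Whether a difference between the B6 and D2 strains depended on the cell type was tested as an interaction. It did at 482 of 10806 matched peaks (4.46%), 353 of 8446 at promoters (4.18%) and 129 distal (5.47% of 2360). Fam135a held 167, 152 and 157 CPM in B6 and 159, 160 and 152 in D2 germ cells. In the heart it held 136, 136 and 133 in B6 and 33.6, 42.0 and 38.5 in D2, so B6 exceeded D2 by 1.83 on the log2 scale in the heart and by 0.01 in germ cells (log2 interaction -1.82, SE 0.13, adjusted p = 7.6e-08). Eif5, a translation factor, showed the same pattern, with 182 ± 15.3 and 153 ± 7.61 CPM in germ cells and 171 ± 1.68 and 42.8 ± 11.9 in the heart, B6 and D2 in turn (SD, n = 3; -1.78, adjusted p = 1.8e-06). At Mrap, a partner of melanocortin receptors, the strains differed in opposite directions: 5.46 ± 1.51 and 11.1 ± 2.15 CPM in germ cells, 60.4 ± 6.03 and 33.7 ± 0.75 in the heart (SD, n = 3; -1.96, adjusted p = 0.00055). By their names, the germ cell peak at Mrap was found on the second genome only and the heart peak on the reference genome only. The part of the mapping genome was not tested. The count depended on single libraries: it was 139 without the second D2 heart library, 2273 without the second B6 heart library and between 176 and 507 without any other.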

How the data were processed

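H3K4me3 ChIP-seq of 12 libraries was analysed: germ cells and cardiomyocytes of B6 and D2, 3 libraries each. The authors deposited counts of reads per peak, not normalized, and the peaks' positions on mm10. The tools named, with no role, are MACS 1.4.2, BWA 0.5.10 and CASAVA 1.8, per the submitters' processing notes. How reads were counted, and the build of the genome used for the second strain, are not given in the sources used here. The peak lists pool strains, per the file headers and peak names. In the germ cell file 4 further columns of per-library values (hybrids) were not used. The B6 germ cell columns were assigned to their group by name and carry no replicate number of the labels.

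Peaks of the 2 files were matched when each covered at least 50% of the other. Promoter peaks lie within 1 kb of a start site of GENCODE M21 basic transcripts and all others are called distal. Counts at matched peaks were fitted in R 4.3.3 with edgeR 4.0.16 (filterByExpr, TMM factors over matched peaks, robust quasi-likelihood), with cell type and strain as terms. Calls used glmQLFTest for any difference and glmTreat for more than 2-fold, each at a Benjamini-Hochberg adjusted p under 0.05. The interaction used the term of strain by cell type. CPM is the count divided by the same scaled library size. A standard error is the size of the log2 value divided by the square root of its F. The fits were tested on simulated data.

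Named are the 10 promoter peaks of largest difference in each direction among those called with libraries that do not overlap, up to 4 called members of each list and those needed to account for it, the 5 promoter and 5 distal peaks of largest interaction in each direction, the 5 distal peaks of largest difference in each direction, the 10 genes of highest level in 1 file only, and Xist. Unnamed gene models are counted, and given by name only where a sequence or a value required elsewhere belongs to them. The members and lists were chosen with earlier results of these data known. The symbol Six6os1 was replaced by 4930447C04Rik, and kinases and assembly factors were dropped from the ribosomal and respiratory lists, after values had been seen. Alternatives were DESeq2 1.42.0, other scalings, filters and overlaps, peak width as an offset, thinning, single strains, BXD germ cells of both antibody lots, other promoter distances, summed promoter peaks and leaving out each library. The summed fit with the width offset and the list counts without single libraries were chosen after seeing the data.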

Additional observations from a re-analysis of the deposited data

Results flagged for a closer look

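At 20 matched peaks the difference between B6 and D2 differed between the cell types in a test of the difference itself (edgeR's interaction term, adjusted p under 0.05). They are the 5 promoter and the 5 distal peaks of largest value in each direction among 482 such peaks. The value given is the log2 difference B6 minus D2 in germ cells minus that in cardiomyocytes.

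At promoters the positive values were 10.9 at Zfp429, 1.96 at Dtx1, 1.85 at Ikbke, 1.76 at Grem1 and 1.66 at Rhov. Zfp429, a zinc finger gene, held 56.8, 54.6 and 64.8 CPM in B6 germ cells and 0 reads in the 3 D2 germ cell libraries, while the heart libraries of both strains held 44.6 ± 3.89 to 57.2 ± 5.01 CPM (SD, n = 3). Its fitted value depends on the prior count and is no measure of size. At Grem1, an antagonist of bone morphogenetic proteins, the strains differed in the heart, with 9.39, 21.9 and 8.36 CPM in B6 and 47.4 ± 3.37 in D2, and germ cells held 35.5 ± 3.59 and 38.3 ± 2.32 (SD, n = 3). Dtx1 and Rhov moved the same way, from 20.5 ± 10.2 to 55.2 ± 15.9 CPM and from 10.8 ± 2.87 to 30.4 ± 3.78 CPM in the heart. The heart peaks at Grem1 and Dtx1 carry names of peaks found on the second genome only, and that at Rhov of one found on both genomes. The part of the mapping genome in these strain differences was not tested. The second B6 heart library was the highest of its group at Dtx1, Grem1 and Rhov. Without it the number of interaction calls was 2273 in place of 482.

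The negative values at promoters were -2.93 at Mtus1, -1.96 at Mrap, -1.82 at Fam135a, -1.78 at Eif5 and -1.52 at Ankrd34a. At the last 3, germ cells of both strains held like levels and D2 hearts held less than B6 hearts, at Ankrd34a 154 ± 8.74 against 444 ± 34.8 CPM (SD, n = 3). At Mtus1 the strains differed in germ cells, with 0.92 ± 0.51 CPM in B6 and 6.19 ± 0.95 in D2. At Mtus1 and Mrap the germ cell peak carries the name of one found on the second genome only. The heart peaks there carry names of peaks found on the reference genome only.

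Distal peaks gave 5.97 near Gm20535, 5.17 near A830008E24Rik, 4.37 near Schip1, 3.89 near Rasl11b and 3.84 near Larp1, and -4.70 near Mroh5, -4.69 near Cdc42ep3, -4.30 near Cnga3, -4.18 near Pde4d and -3.28 near Gm36017. All 10 differed between strains in germ cells and not, at an adjusted p under 0.05, in the heart. The Larp1 peak held 121, 39.3 and 68.5 CPM in B6 germ cells and 5.34, 2.17 and 6.50 in D2, against 49.3 ± 6.01 and 40.6 ± 5.02 in the heart. The Pde4d peak held 1.08 ± 0.84 and 12.4 ± 1.83 CPM in germ cells and 13.7 ± 1.94 and 9.60 ± 1.53 in the heart (SD, n = 3). In the germ cell file all 5 negative peaks carry names of peaks found on the second genome only, and 3 of the 5 positive ones names of peaks found on the reference genome only. The part of the genome used for mapping in these differences was not tested.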

How the results depend on the processing

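Over 59 named peaks and list members, 1230 values under alternatives kept their direction, with 0 reversed. Of these 39 lost their call, 23 of them under the width offset, and 9 gained one. The number of peaks that differed was 12732 with overlaps of 1 base, 2782 with 80% overlap and 4473 for peaks found on both genomes. The number above 2-fold was 4105, 123 and 297 under these, 598 with a minimum of 50 reads and 273 with the width offset. That of interactions was 1264, 68 and 211, and 264 after thinning. With 80% overlap 4075 peaks were matched. Leaving out each library gave 7401 to 7708 peaks that differed, 825 to 933 above 2-fold and 139 to 2273 interactions. Germline genes higher at matched promoters (4) became 0 with 80% overlap, on both genomes and with the width offset, 7 from summed peaks and 0 from summed peaks with the offset. Heart genes higher (4) became 0 with 80% overlap, 1 with the offset, 54 and 13 from summed peaks without and with it. The 47 germline genes in the germ cell file only were 47 within 500 bases and 48 within 2 kb of a start site. Other alternatives left these counts within 1.5 times.

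A replicate block could be fitted for D2 alone, where the labels number both groups: 7873 peaks differed and 1106 were above 2-fold, against 7573 and 1016 without it. Deviations of same-numbered libraries correlated at 0.31, 0.05 and 0.01, and those of differently numbered ones at -0.26 to 0.19. With 3 libraries centred on each group mean these values constrain one another. They cannot show whether the numbers pair the libraries. The causes of these moves were not tested. Depth limits low peaks, since the shallowest heart library held 2618483 reads in peaks.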
